A study of Mus musculus with 19 samples.

Results

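Tenm2, Brinp1, Kcnma1, Hs3st3a1 and Trabd2b were 5 of the 12778 genes in the expression matrix. They were chosen by measured values: each was among the largest rises of the double knockout (double KO) against wild type (WT), or among its largest upward departures from the sum of the 2 single knockouts. Their differences between the double KO and the other reprogrammed cells are therefore given as a description, without a test.

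The cells were mouse embryonic fibroblasts reprogrammed with Oct4, Sox2 and Klf4 into induced pluripotent stem cells (iPSC) or cells labelled as such, and embryonic stem cells (ESC), all grown in medium with LIF and FBS. The iPSC genotypes were WT (3 libraries), miR-290KO, miR-302KO and miR-290KO;miR-302KO, the double KO (2 colonies each, with 2 libraries per colony). The ESC genotypes were miR-290KO and miR-302KO (2 libraries each). WT ESC and double KO ESC were not analysed here. The reprogrammed cells were sampled many passages after reprogramming, and a knockout genotype stood on 2 colonies. The submitters except the WT iPSC from their statement that replicates were derived independently, so the WT libraries may come from 1 derivation, and p-values against WT may then be too small. Messenger RNA was read from its 3′ end in total RNA, an assay that does not read the mature microRNAs, so the deletions themselves could not be checked in these libraries.

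Each library gave between 5494019 and 21287508 recovered reads, and the median library gave 15002308. All levels are in counts per 1000000 reads (CPM), with mean ± SD over samples, a sample being a colony or, in WT and ESC, a library. In bulk RNA, a lower level per cell and a smaller share of expressing cells cannot be told apart. All 10 markers of pluripotent cells on a list that included Pou5f1, Nanog and Esrrb were lower in the double KO than in WT (limma, adjusted p at most 1.24e-06). Their summed level was 68.8 to 127 CPM in the double KO libraries, against 3389 to 4083 in WT and 3316 or more in every other library. The label iPSC of the double KO therefore goes against these markers, and the cells are called double KO cells here. In the miR-302 KO iPSC, library 2 of colony 1 was taken to stand apart from its group, for which no threshold is given here. The median log2 difference of all genes, miR-302 KO iPSC minus WT, was −0.11 with this library and 0.01 without it. The log2 differences of the 5 genes that rest on it are given with and without it.

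Early embryonic and pluripotent cells transcribe the clusters miR-290 and miR-302, which give microRNAs that share much of their seed, the bases that pair with target messages and lower their output. The 5 genes have other settings as background. Teneurins are large membrane proteins that join neurons to their partners across the synapse. Brinp1 was named for its induction by bone morphogenetic protein and retinoic acid in neurons. Kcnma1 encodes the pore of the BK potassium channel, which opens with calcium and voltage. Hs3st3a1 encodes a Golgi sulfotransferase that adds a late sulfate to heparan sulfate chains. Trabd2b, also called Tiki2, encodes a membrane protease that inactivates Wnt ligands.

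The microRNAs lost in the double KO are shown because their seed is the letter pattern that can be looked for in the 5 genes. Of the 9 mature 3p forms of these clusters read here from a RefSeq table (GRCm38.p6), 5 share the same bases 2 to 8, in capitals: 2 from the miR-302 cluster, such as miR-302b-3p at chr3:127545275-127545297 (plus strand), and 3 from the miR-290 cluster, such as miR-294-3p at chr7:3220691-3220712 (plus strand). Written 5′ to 3′, they read
mmu-miR-302b-3p: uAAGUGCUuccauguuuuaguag
mmu-miR-302d-3p: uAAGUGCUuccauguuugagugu
mmu-miR-291a-3p: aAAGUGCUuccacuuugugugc
mmu-miR-294-3p: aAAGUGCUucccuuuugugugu
mmu-miR-295-3p: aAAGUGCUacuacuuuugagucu
so that by design only the double KO lacked both sources of this seed. The other 4 forms differed in these bases: AAGUGCC in miR-290a-3p, AAGUGCA in miR-291b-3p, GUGCCGC in miR-293-3p and AGUGCUU in miR-302c-3p. The miR-302a-3p and miR-292a-3p sequences were not analysed here.

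The letters AGCACTT, which pair with the whole of the shared seed, were looked for on the sense strand of the longest annotated 3′ UTR of each gene (GENCODE vM21, GRCm38). They stood once in Hs3st3a1 and once in Trabd2b, and were not found in Tenm2, Brinp1 and Kcnma1. Both matches were followed by an A, the base that completes the longest form of a seed match. With the match in capitals and written 5′ to 3′, these places were chr11:64521736-64521763 (plus strand) in Hs3st3a1 and chr4:114613125-114613152 (plus strand) in Trabd2b.
Hs3st3a1: tgtcgcagagtAGCACTTactagctgtt
Trabd2b: attaagtgaccAGCACTTagcggggaat
Of 11839 genes of the matrix with an annotated 3′ UTR, 17.5% held AGCACTT at least once. The shorter GCACTT, which lies within it and pairs with bases 2 to 7, stood once in each of Tenm2, Kcnma1, Hs3st3a1 and Trabd2b, and was not found in Brinp1. In all genes with a 3′ UTR, 33.2% held it. Longer UTRs hold more matches of any kind: the UTRs were 495 bases long in Brinp1, 1379 in Tenm2, 2022 in Hs3st3a1, 4969 in Trabd2b and 7730 in Kcnma1, against a median of 1160. A match is a description of the letters and not a measured site.

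Promoter windows of RefSeq (GRCm38.p6, 250 bases before to 50 after the start) were at hand for 4 of the 5 genes. In Brinp1 and Hs3st3a1 the start was also the outer end of the GENCODE gene. Their last 120 bases before the start are shown, with each CG pair in capitals, to let a reader compare 2 promoters whose genes were near 0 in 15 libraries and high in 4. They lie at chr4:68954398-68954517 (minus strand) and chr11:64435212-64435331 (plus strand).
Brinp1: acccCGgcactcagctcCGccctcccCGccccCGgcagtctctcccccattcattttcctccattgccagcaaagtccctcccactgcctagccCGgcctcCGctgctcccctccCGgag
Hs3st3a1: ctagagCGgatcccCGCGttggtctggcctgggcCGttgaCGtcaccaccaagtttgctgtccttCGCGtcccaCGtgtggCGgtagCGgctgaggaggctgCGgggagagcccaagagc
The stretch held 7 CG pairs in Brinp1 and 11 in Hs3st3a1. Over the whole windows of 300 bases the counts were 18 and 23, against a median of 7 over 32851 windows. Fewer CG pairs than Brinp1 had 70.3% of the windows, and fewer than Hs3st3a1 had 78.5%. DNA methylation was not measured.

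All 5 genes were near 0 in the 15 libraries of the other groups and high in all 4 libraries of the double KO (the plot of levels by library). The highest of the 15 other libraries never passed 3.11 CPM. The lowest double KO library was 50.4 times the highest other library for Tenm2, 115 times for Brinp1, 13.8 times for Kcnma1, 95.1 times for Hs3st3a1 and 25.1 times for Trabd2b. Of 12234 genes, 46 (0.376%) had at least 20 CPM in every double KO library and under 5 CPM in each of the others. The 5 genes were among them, which their choice by the largest rises or departures favours. These limits were set after the values were seen.

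**Figure D1:**
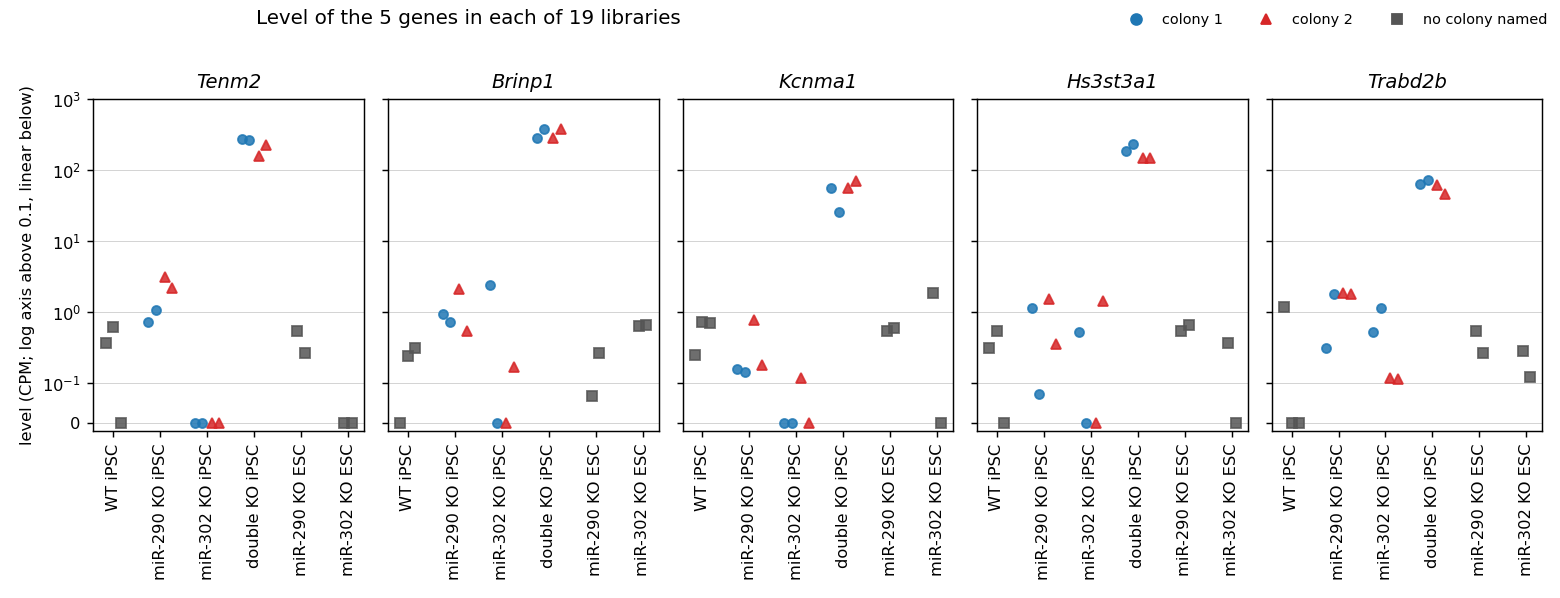
Level of each gene in CPM (vertical axis, logarithmic above 0.1 and linear below) in 19 libraries, by group; circles and triangles are the libraries of colonies 1 and 2, squares are libraries with no colony named. In each panel the 4 double KO libraries lie apart, at 25.4 CPM or more, and no other library passes 3.11 CPM.

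Tenm2 (teneurin-2) lies on the minus strand of chromosome 11 (36006656 to 37235964, GRCm38). The 2 libraries of double KO colony 1 had 272 and 267 CPM, and those of colony 2 had 157 and 229 CPM (231 ± 54.2, SD, n = 2 colonies). In the miR-290 KO iPSC it had 0.732 and 1.08 CPM in colony 1 and 3.11 and 2.16 CPM in colony 2. In WT it had 0.374, 0.610 and 0 CPM.
The 4 miR-302 KO iPSC libraries and both miR-302 KO ESC libraries had no Tenm2 read at all, while the miR-290 KO ESC had 0.537 and 0.263 CPM. The order was thus double KO, then miR-290 KO iPSC, then a set of groups whose libraries overlapped or met at 0. No library of the miR-290 KO iPSC overlapped one of WT, though at the nearest 14 reads (0.732 CPM) stood against 10 reads (0.610 CPM). The share of all genes with such a gap was not counted. A count of 0 allows up to 0.0506 CPM over the miR-302 KO iPSC libraries (3 reads over the group, counting error only). Set against that floor, the double KO level was at least 4512-fold higher, and against WT it was 642-fold higher (12606 against 16 reads).

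Brinp1 lies on the minus strand of chromosome 4 (68761514 to 68954397). Double KO colony 1 gave 280 and 384 CPM, and colony 2 gave 284 and 378 CPM (332 ± 0.676, SD, n = 2 colonies). The small SD came from averaging: the libraries within each colony differed by far more than the colony means did.
In WT it had 0, 0.244 and 0.318 CPM, and in the miR-290 KO iPSC 0.941 and 0.723 CPM in colony 1 and 2.09 and 0.540 CPM in colony 2. The miR-302 KO iPSC had 2.45 and 0 CPM in colony 1 and 0 and 0.170 CPM in colony 2. The ESC libraries had 0.0671 and 0.263 CPM (miR-290 KO) and 0.636 and 0.666 CPM (miR-302 KO).
The double KO was 1854-fold above WT (18201 against 8 reads) and 260-fold above the miR-290 KO iPSC. Below the double KO, the libraries of neighbouring groups overlapped except between the miR-302 KO ESC and WT iPSC. That gap was 9 against 4 reads at the nearest, and its share over all genes was not counted.

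Kcnma1 lies on the minus strand of chromosome 14 (23289431 to 24014491). It had 56.0 and 25.4 CPM in colony 1 of the double KO and 56.4 and 69.1 CPM in colony 2 (51.7 ± 15.6, SD, n = 2 colonies). The lowest of these, colony 1 library 2, had under 50% of the level of each other double KO library.
In WT it had 0.249, 0.732 and 0.716 CPM, and in the miR-290 KO iPSC 0.157 and 0.145 CPM in colony 1 and 0.789 and 0.180 CPM in colony 2. The miR-302 KO iPSC had 2 reads in all, both in colony 2 library 1 (0.118 CPM). The ESC had 0.537 and 0.591 CPM (miR-290 KO) and 1.84 and 0 CPM (miR-302 KO).
The double KO was 95.1-fold above WT (2917 against 25 reads). Against the 2 reads of the miR-302 KO iPSC the ratio was 1566, with an exact (Clopper-Pearson) 95% interval of 433 to 12937 for counting error. Among the groups under the double KO, the miR-302 KO iPSC were lowest and did not overlap the miR-290 KO iPSC next above them, and all higher neighbours overlapped. At the nearest that gap was 2 reads (0.118 CPM) against 2 reads (0.145 CPM), and its share over all genes was not counted.

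Hs3st3a1 lies on the plus strand of chromosome 11 (64435332 to 64522841). It had 186 and 236 CPM in colony 1 of the double KO and 146 and 149 CPM in colony 2 (179 ± 45.0, SD, n = 2 colonies). Both libraries of colony 1 lay above both of colony 2.
In WT it had 0.312, 0.549 and 0 CPM. The miR-290 KO iPSC had 1.15 and 0.0723 CPM in colony 1 and 1.53 and 0.360 CPM in colony 2, and the miR-302 KO iPSC 0.529 and 0 CPM in colony 1 and 0 and 1.42 CPM in colony 2. The ESC had 0.537 and 0.657 CPM (miR-290 KO) and 0.364 and 0 CPM (miR-302 KO).
The groups below the double KO all overlapped their neighbours in level, and the double KO was 567-fold above WT (9743 against 14 reads). Hs3st3a1 is closely alike in sequence to Hs3st3b1, and in 2 of 19 libraries its value did not come to a whole number of reads, so its reads may have been shared out by estimation. In the other 17 libraries, and in all 19 for the other 4 genes, the values were whole within 0.02 of a read.

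Trabd2b lies on the plus strand of chromosome 4 (114406724 to 114615098). It had 64.5 and 72.8 CPM in colony 1 of the double KO and 61.7 and 46.7 CPM in colony 2 (61.4 ± 10.2, SD, n = 2 colonies). In WT 1 library had 1.18 CPM and the other 2 had no read.
The miR-290 KO iPSC had 0.314 and 1.81 CPM in colony 1 and 1.86 and 1.80 CPM in colony 2, and the miR-302 KO iPSC 0.529 and 1.15 CPM in colony 1 and 0.118 and 0.113 CPM in colony 2. The ESC had 0.537 and 0.263 CPM (miR-290 KO) and 0.283 and 0.121 CPM (miR-302 KO). Libraries of every pair of neighbouring groups below the double KO overlapped. Against WT the double KO was 144-fold higher (3365 against 19 reads), and against the miR-290 KO iPSC it was 45.2-fold higher, the smallest ratio of the 5 genes in that comparison.

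The deposited log2 values add a small prior to each CPM, so changes of genes near 0 depend on that prior and are inexact. On this scale the double KO minus WT came to 9.11 for Tenm2, 10.01 for Brinp1, 6.15 for Kcnma1, 8.85 for Hs3st3a1 and 7.52 for Trabd2b. In rank from the largest rise, these were places 12, 6, 66, 15 and 32 among 12778 genes. The background was wide: 6255 genes (49%) were called in this comparison, meaning an adjusted p under 0.05 in limma, 27.4% of all genes higher and 21.5% lower. The median log2 difference of all genes was 0.16. Under median-of-ratios scaling it was −0.09, and the split of 3502 higher and 2753 lower calls became 2793 and 3520.

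The single knockouts minus WT gave smaller differences, above 0 for some of the 5 genes and below 0 for others (the plot of differences by comparison). The miR-290 KO iPSC minus WT came to 2.06 for Tenm2 (SE 0.76), 1.81 for Brinp1 (SE 0.79), 2.07 for Trabd2b (SE 1.01), 0.93 for Hs3st3a1 (SE 0.84) and −0.70 for Kcnma1 (SE 0.95). The miR-302 KO iPSC minus WT came to −1.32 for Tenm2, −1.88 for Kcnma1, 0.30 for Brinp1, 0.12 for Hs3st3a1 and 0.64 for Trabd2b. With the library that stood apart left out, it was 1.30 for Brinp1, 0.64 for Hs3st3a1 and 0.41 for Trabd2b, and unchanged for Tenm2 and Kcnma1, which had no read in either library of that colony. All these comparisons share the WT libraries.
The departure from additivity, the double KO minus both single KOs plus WT, was 8.72 for Kcnma1 (SE 1.41), 8.37 for Tenm2 (SE 1.13), 7.90 for Brinp1 (SE 1.17), 7.81 for Hs3st3a1 (SE 1.24) and 4.81 for Trabd2b (SE 1.5). Their places from the top were 3, 5, 10, 11 and 152. Kcnma1 had the smallest rise over WT of the 5 and the largest departure, since both of its single KO differences were below 0. With log2(CPM + 1), a larger prior, its departure was 5.85, below those of Tenm2 (6.82), Hs3st3a1 (6.59) and Brinp1. With the miR-302 KO library that stood apart left out, the departures of Kcnma1 and Tenm2 were the same, that of Brinp1 was 6.90, that of Hs3st3a1 7.28 and that of Trabd2b 5.04.

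**Figure D2:**
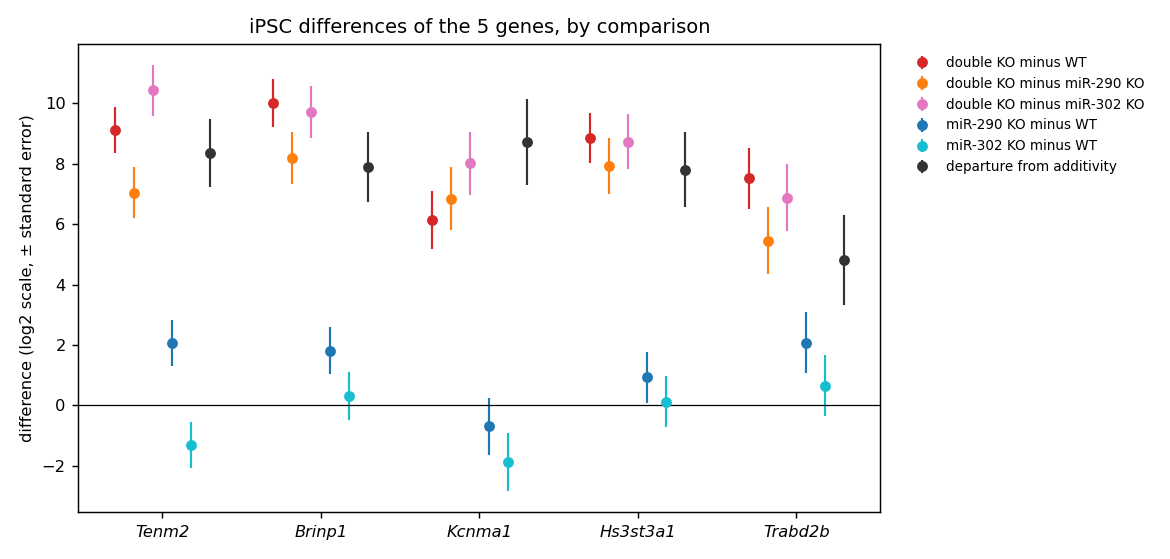
Differences between iPSC groups on the log2 scale (vertical axis; points with bars of 1 standard error) for the 5 genes, and the departure from additivity in dark grey. The double KO minus WT runs from 6.15 to 10.01, while the single knockouts minus WT run from −1.88 to 2.07.

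The authors' deposited table of the double KO against WT lists all 5 genes among its 8672, with log2 fold changes of 9.06 for Tenm2, 10.56 for Brinp1, 6.23 for Kcnma1, 8.88 for Hs3st3a1 and 6.93 for Trabd2b. The genes were chosen on rises in this comparison or on departures that include it, so their listing largely follows from that choice. In the limma fit 49% of all genes were called in it. None of the 5 is listed in the authors' deposited table of the miR-290 KO (1429 genes) or in that of the miR-302 KO (43 genes), which hold adjusted p-values of at most 0.05. Across all genes, the limma fit called 201 (1.57%) for the miR-290 KO iPSC against WT and 4 (0.0313%) for the miR-302 KO iPSC. The first count was 2 without colony 2 of the miR-290 KO iPSC and 117 without colony 1, 46, 82 and 79 without WT libraries 1, 2 and 3, and 90 and 93 without libraries 1 and 2 of the miR-290 KO ESC. The second was 1273 without colony 2 of the miR-302 KO iPSC.

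Differences that were not themselves the basis of the choice were tested. The first was the difference between the colonies of the double KO, over 19 libraries, where the spread is that between libraries of a colony or line. It rests on the same double KO libraries whose mean level chose the genes, and genes high in 1 colony alone were less likely to be chosen. The lack of a call is therefore not read as agreement of the colonies. None of the 5 genes was called (limma), and none had an unadjusted p under 0.05, against 370 genes called of all (2.9%). That count fell to between 159 and 189 without any 1 of the 4 double KO libraries, and was 732 and 729 without libraries 1 and 2 of miR-302 KO iPSC colony 1. Colony 1 minus colony 2 was 0.51 for Tenm2 (SE 0.68, adjusted p 0.978), 0.00 for Brinp1 (SE 1.06, adjusted p 1), −0.72 for Kcnma1 (SE 0.98, adjusted p 0.980), 0.51 for Hs3st3a1 (SE 1.19, adjusted p 1) and 0.35 for Trabd2b (SE 0.98, adjusted p 1). These errors pool the spread of all 19 libraries, most of them with values near 0, where a few reads move the log2 value far. By level, both Hs3st3a1 libraries of colony 1 lay above both of colony 2, as did those of Tenm2 and Trabd2b. Those of Kcnma1 lay below, though only by 56.0 against 56.4 CPM at the nearest, and those of Brinp1 overlapped. How many of all genes had such an order was not counted. With 2 libraries per colony, it is not read as a difference between the colonies.

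The second was the ESC, which had lost 1 cluster each and were not made by reprogramming. The 5 genes had between 0 and 26 reads in an ESC genotype, so that only a large difference could have been called. The lack of a call is therefore not read as likeness of the ESC genotypes for these 5 genes. None was called between the genotypes (limma) and none had an unadjusted p under 0.05, against 75 genes of all (0.587%). Leaving out the one or the other miR-290 KO ESC library gave a count of 4, and the count was 357 and 19 without libraries 1 and 2 of the miR-302 KO ESC, 37 without either miR-290 KO iPSC colony, and 38 and 41 without WT libraries 1 and 3. The miR-290 KO ESC minus the miR-302 KO ESC was 1.74 for Tenm2 (SE 0.83, adjusted p 0.417), −1.38 for Brinp1 (SE 0.86, adjusted p 0.554), 0.35 for Kcnma1 (SE 1.04, adjusted p 0.937), 1.37 for Hs3st3a1 (SE 0.92, adjusted p 0.581) and 0.62 for Trabd2b (SE 1.11, adjusted p 0.881). Tenm2 was read in both miR-290 KO ESC libraries (12 reads) and in neither miR-302 KO ESC library.

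The families and pathways of the 5 genes were followed in 8 lists with 86 further genes of the matrix (the plot of related genes by list). In the double KO against WT 56 of them were called, 33 higher and 23 lower, where 49% of all genes were called, 27.4% higher and 21.5% lower. These shares are the background of each list count that follows. In the miR-290 KO iPSC 8 of the 86 were called, all higher, against 1.57% of all genes. None of the 8 was called by limma without colony 2 of the miR-290 KO iPSC, where 1112 of all genes had an unadjusted p under 0.05. Without colony 1 there were 3 of the 8, and without WT library 2 there were 5. In the miR-302 KO iPSC none was called by limma, with 20 at an unadjusted p under 0.05. Genes that are named beside their list follow the naming rule given with the processing.

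Of the teneurins, the latrophilins that bind them and the FLRT proteins that bind latrophilins, 4 of 7 measured genes rose, 1 fell and 2 were not called (median log2 difference 1.16). Flrt2, a membrane protein that binds latrophilins, rose from 6.27 ± 1.45 CPM in WT (SD, n = 3) to 577 ± 37.8 CPM (SD, n = 2 colonies), a log2 difference of 6.51 (SE 0.44, adjusted p 1.77e-07). The latrophilin gene Adgrl2 rose by 2.54 and the paralog Tenm4 by 2.26.
The paralog Tenm3 went the other way. It had 54.6 ± 7.80 CPM in WT and 4.42 ± 1.44 CPM in the double KO, a log2 difference of −3.64 (SE 0.26, adjusted p 2.91e-07). In the single knockouts Tenm3 stayed at 59.6 (miR-290 KO) and 51.8 CPM (miR-302 KO), with log2 differences of 0.13 and −0.08 that were not called. Tenm1 was not analysed here.

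Brinp1 is known from neurons, and 5 of 12 measured neural genes rose, 5 fell and 2 were not called. Sox1, a transcription factor of early neural cells, rose by 4.59 on the log2 scale (SE 0.41, adjusted p 2.14e-06), from 3.17 ± 1.70 to 73.0 ± 2.42 CPM. Gap43, a growth cone protein, fell by 4.06 (adjusted p 4.35e-05), and Elavl3, an RNA-binding protein of neurons, fell by 3.74 (adjusted p 0.000516).
In the miR-290 KO iPSC 6 genes of this list were called higher, among them Sox1 (3.23) and also Gap43 (2.82), which was lower in the double KO. None of the 6 was called without colony 2 of that genotype (limma). A shorter list of 12 neural markers had a summed level of 1394 to 2451 CPM in the double KO and 369 to 681 CPM in WT. Of its 8 measured genes 2 rose and 4 fell, and Stmn2 alone made up 1797 CPM of the double KO sum. Whether neural cells take part in the level of Brinp1 was not tested. Brinp2 and Brinp3 were not analysed here.

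Among genes that respond to bone morphogenetic protein or handle retinoic acid, the signals behind the name of Brinp1, 5 of 13 rose, 5 fell and 3 were not called. The rises were led by Id1 (4.63, adjusted p 2.38e-06) and Id2 (3.57, adjusted p 2.40e-06), inhibitors of differentiation that respond to bone morphogenetic protein. Id1 had 30.4 ± 12.5 CPM in WT, 219 CPM in the miR-290 KO and 758 ± 332 CPM in the double KO, and both Id genes were also called higher in the miR-290 KO, though not without colony 1 or without colony 2 of that genotype. Among the falls, Crabp1, a carrier of retinoic acid in the cell, fell by 5.41 (adjusted p 3.03e-06). Without colony 2 of the double KO the list had 3 genes higher and 5 lower (median log2 difference −0.08, against 0.64 with both colonies), and without colony 1 it had 5 higher and 3 lower (median 1.22).

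Of the potassium channels opened by calcium or sodium, 3 genes other than Kcnma1 were measured and none rose. Kcnn1, a small-conductance calcium-activated channel, fell by 2.09 (adjusted p 0.0351), from 2.75 ± 0.327 to 0.723 ± 0.802 CPM. That call was lost without colony 1 of the double KO (adjusted p 0.367) and without any 1 of the WT libraries. The Kcnmb genes, which encode the auxiliary subunits of the BK channel, were not analysed here.

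Hs3st3a1 acts on heparan sulfate chains. Of 16 measured enzymes that build or edit heparan sulfate chains, 8 rose, 2 fell and 6 were not called (median log2 difference 1.36). Of 11 core proteins that carry the chains, 7 rose, none fell (limma) and 4 were not called (median 1.86). Against this stand 27.4% of all genes higher and a median of 0.16. Median-of-ratios scaling left 8 and 7 higher, with 4 and 0 lower. Of the enzymes 1 was lower, not 2, without colony 1 of the double KO or without any 1 of the WT libraries.
Among the enzymes, Ndst1, which starts the sulfation of the chains, rose by 3.30 (SE 0.40, adjusted p 3.06e-05), from 11.9 ± 6.12 to 109 ± 0.645 CPM. Sulf2, which removes sulfates outside the cell, rose by 2.38 (adjusted p 3.60e-06). Hs3st4, a relative of Hs3st3a1, rose by 3.21 from 0.331 to 4.24 CPM (adjusted p 0.00838), and lost the call without colony 2 of the double KO (adjusted p 0.0980).
The closest relative, Hs3st3b1, fell. It had 2.30 ± 1.32 CPM in WT and 0.108 ± 0.153 CPM in the double KO, a log2 difference of −3.32 (SE 0.96, adjusted p 0.0123). Leaving out colony 2 of the double KO ended this call (adjusted p 0.0838). Reads of these alike genes may be split in error.
Among the core proteins the glypicans led. Gpc6 rose by 5.21 (adjusted p 0.000174), Gpc4 by 4.25 (adjusted p 6.95e-06) and Gpc1 by 3.21 (adjusted p 1.73e-05). Gpc4 reached 342 ± 53.0 CPM, from 17.9 ± 3.64 in WT. Hspg2, which encodes perlecan of the basement membrane, rose by 2.51 (adjusted p 0.000450).

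Trabd2b inactivates Wnt ligands. Its list held 12 other measured genes, Wnt antagonists and the related gene Trabd. Of these, 6 fell, 3 rose, Trabd among them, and 3 were not called (median log2 difference −1.63). Without colony 1 of the double KO, 3 were lower and 2 higher (median −0.72). The number higher was also 2 without colony 2 of the double KO, without WT library 1 or 2, and under median-of-ratios scaling. Notum, a secreted enzyme that strips Wnt of its lipid, fell by 7.77 (SE 0.54, adjusted p 2.44e-07), from 50.5 ± 8.51 to 0.0720 ± 0.0435 CPM. Sfrp2, a secreted Wnt-binding protein, fell by 4.99 (adjusted p 2.39e-05). Dkk1, which blocks the Wnt coreceptor, had 128 reads in WT and 2 in the double KO, a ratio of 78.5 in CPM with an exact 95% interval of 21.3 to 656 for counting error. Dkk3 fell by 2.69 (adjusted p 0.00779), a call that was lost without colony 1 of the double KO (adjusted p 0.0913).
The related gene Trabd rose by 1.77 (SE 0.34, adjusted p 0.000933), from 18.4 ± 3.42 to 62.5 ± 1.61 CPM.
Of 12 measured Wnt ligands and response genes, 1 rose, 3 fell and 8 were not called. Of the response genes, Sp5 fell by 6.32 (adjusted p 6.40e-08) and T fell by 4.88 (adjusted p 0.000482). Wnt5b fell by 2.15 (adjusted p 0.0169), which was lost without colony 1 of the double KO (adjusted p 0.297). Wnt3 had 2.47 ± 1.13 CPM in WT and 15.6 ± 16.4 CPM in the double KO and was called higher (2.09, adjusted p 0.0419), and lost that call in 9 of 22 other settings, median-of-ratios scaling among them, with an adjusted p of 0.516 without colony 2 of the double KO.

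**Figure D3:**
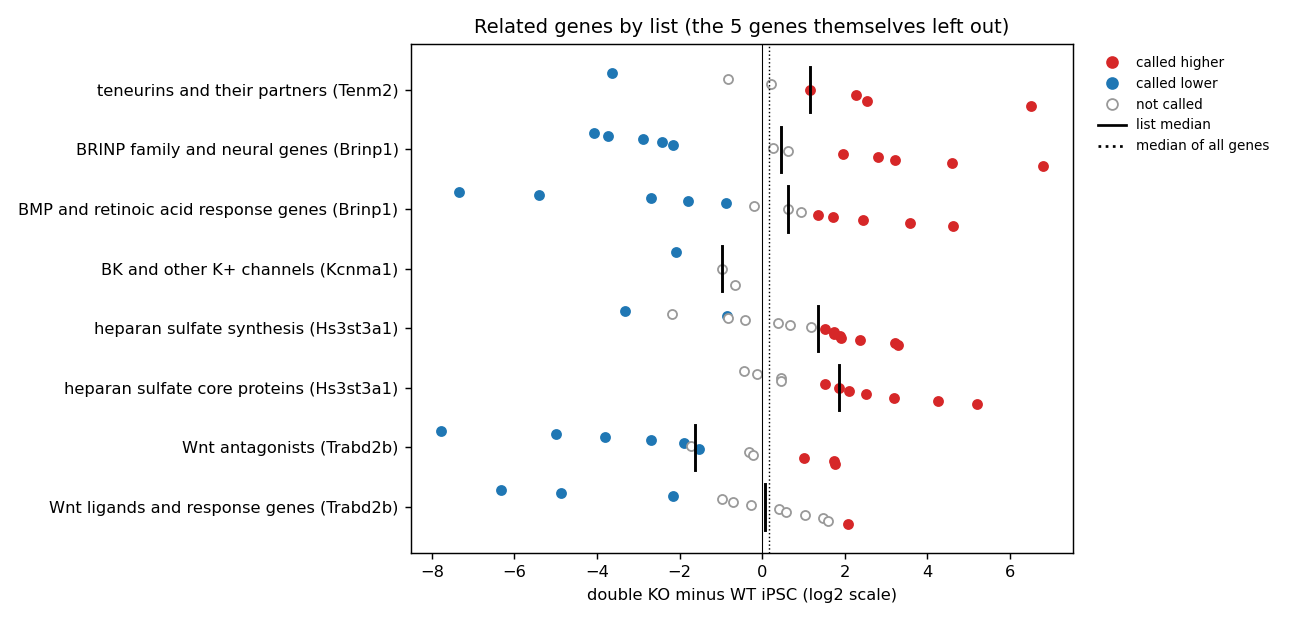
Log2 difference of the double KO minus WT iPSC (horizontal axis) for each measured gene of the 8 lists, the 5 chosen genes left out; filled red points were called higher, filled blue points lower, and open points were not called. Black bars are list medians, from −1.63 in the Wnt antagonists (with Trabd) to 1.86 in the heparan sulfate core proteins, and the dotted line is the median of all genes, 0.16.

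The nearest gene of the matrix on each side of the 5 genes was compared in the same way (the plot of neighbouring genes). Since the 5 genes were chosen among the largest rises, smaller values beside them follow from that choice. Of these 10 neighbours 5 were called higher and none lower (limma), against 27.4% and 21.5% of all genes. Without colony 1 of the double KO 3 of the 10 were called.
Wwc1, whose nearer edge lies 26.1 kb from Tenm2, differed by 1.13 (adjusted p 0.152), at 0.215 CPM in WT and 0.750 CPM in the double KO. Mat2b on its other side, 3443 kb away, differed by 0.07 (adjusted p 0.817).
Trim32, 3145 kb from Brinp1, rose by 1.30 (adjusted p 0.00450), and Cdk5rap2 differed by 0.44 (adjusted p 0.286). Next to Kcnma1, the transcription factor gene Zfp503 rose by 3.18 (adjusted p 0.00844) from 1.01 to 9.60 CPM, and Dlg5, 119 kb away, by 1.03 (adjusted p 0.0137).
Next to Hs3st3a1, 2810001G20Rik rose by 2.03 (adjusted p 0.00753) and Elac2 differed by 0.76 (adjusted p 0.0966). Next to Trabd2b, Spata6 rose by 1.87 (adjusted p 0.00556), and the forkhead gene Foxd2 differed by 2.71 (SE 1.14, adjusted p 0.0658). Without colony 1 of the double KO, Zfp503 (adjusted p 0.0955) and 2810001G20Rik (adjusted p 0.0609) were no longer called, and Dlg5 was not without colony 2 (adjusted p 0.137) or without WT library 2.

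**Figure D4:**
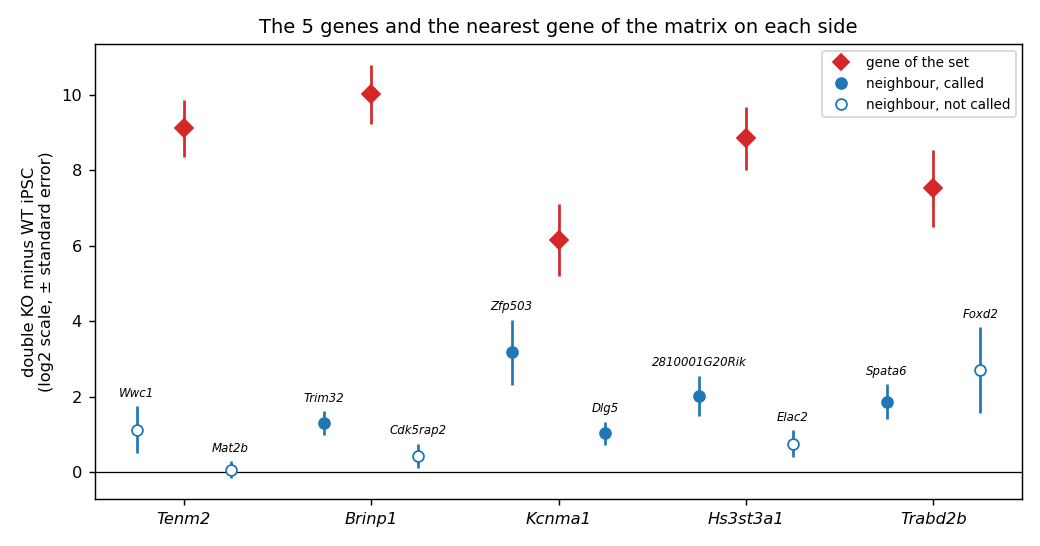
Log2 difference of the double KO minus WT iPSC (vertical axis; bars are 1 standard error) for the 5 genes as red diamonds and for the nearest gene of the matrix on each side as blue circles, filled where called. The neighbours run from 0.07 (Mat2b) to 3.18 (Zfp503), and the 5 genes from 6.15 to 10.01.

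The genes most like each of the 5 were taken by Pearson's r of the deposited log2 value over 13 samples. The samples are dominated by the gap between the double KO and the rest, so r is high for many genes: between 196 (Kcnma1) and 519 (Hs3st3a1) had an r above 0.9. Closest to Tenm2 were Pbx3, Efna5 and Tmem176b (r of 0.984 each). Closest to Brinp1 were Zcrb1 (0.989), Dcaf10 (0.987) and Them4 (0.984). Closest to Hs3st3a1 were Phlda3 (0.992), Slc25a51 (0.984) and Tmem47 (0.981).
For Kcnma1 they were Ebp (0.974), Pgap3 (0.966) and Fbln5 (0.961), and for Trabd2b Abhd17c, Hsd17b12 and Flna (0.963 each). All 15 were called higher in the double KO against WT (limma), against 27.4% of all genes. This largely follows from taking them by r with genes that are high in the double KO. Their log2 differences ran from 1.52 (Flna) to 8.46 (Tmem176b), and Pgap3 was not called without colony 2 of the double KO.
Efna5, an ephrin ligand that guides axons, had 3.47 ± 0.797 CPM in WT, 13.8 CPM in the miR-290 KO and 300 ± 48.7 CPM in the double KO, and differed by 1.96 in the miR-290 KO (adjusted p 0.0219), a comparison in which 2 genes of all were called without colony 2. In WT the 15 genes ran from 0.657 CPM (Tmem176b) to 207 CPM (Flna, an actin cross-linker), so that a high r came also with a start far from 0.

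Markers of other cell types were read beside the 5 genes. Of 14 listed markers of fibroblasts, the cells from which the iPSC were made, 5 were in the matrix. The rest were not in the matrix, and nothing is read from that about their level. The summed level of the 5 was 5.78 to 34.9 CPM in the double KO and 8.60 to 11.9 CPM in WT. None of these 5 markers was called higher (limma) and 2 were called lower. Twist1 had 0.83 CPM in WT and 6.06 CPM in the double KO (adjusted p 0.0508), and Fbn1 had 1.66 and 12.8 CPM (adjusted p 0.124). Trophoblast markers summed to 16.4 to 79.6 CPM in the double KO and 89.4 to 196 CPM in WT, and none of 7 was higher (limma) and 4 lower. Smooth muscle markers, cells in which Kcnma1 is abundant, summed to 25.5 to 63.0 CPM in the double KO and 19.1 to 76.1 CPM in WT, and none of 5 was higher (limma) and 1 lower. Of primitive endoderm 2 of 8 markers were in the matrix, and both were lower, with Gata4 at 0 in all double KO libraries. The part of any cell type in the rise of the 5 genes was not tested.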

How the data were processed

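RNA from 19 libraries was read from the 3′ end of messages (QuantSeq, per the labels' protocols). Per the submitters' processing notes, tools included Trim Galore 0.66, STAR, Salmon 1.4.0, limma and DESeq2 1.34.0, with build mm10. The authors' deposited matrix holds log2 values: log2 CPM with a prior of 0.164 CPM, shifted by a constant per gene, as read from the values. In 95.8% of 12778 genes whole reads were recovered, and 99.6% of their values were whole within 0.02 of a read; 543 genes were left out of the totals. CPM are recovered reads per 1000000 of a library total on the authors' scaling, read from the prior in each library, which differs slightly from the recovered total. From the authors' deposited comparison tables the log2 fold changes and adjusted p-values were read as given, and the deposited mean normalized signal served to check the recovered reads. In the matrix, 6 columns of another series were not used.

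Deposited log2 values were tested with limma 3.58.1 (R 4.3.3), with a trend, libraries of a colony averaged: 13 samples, 6 groups, 7 residual degrees of freedom, no filter on low values. Benjamini-Hochberg adjustment ran over 12778 genes. The colony comparison used 19 libraries in 9 cells. The limma fits were also run on simulated, normally distributed values. These do not reproduce tied low counts or libraries that share a derivation, so the check does not cover such cases. Floors are 3 reads over a group, and floors and intervals cover counting error only, since reads carry no molecular identifiers. The 5 genes and the lists were chosen with earlier results of these data known. Named genes are the 5, up to 4 called genes per list with the largest change, their paralogs, the 3 genes most like each, and the nearest neighbours; Stmn2, Twist1, Fbn1, Gata4 and the pluripotency markers were named after their values were seen. Some genes that the rule takes are not reported here.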

Additional observations from a re-analysis of the deposited data

Results flagged for a closer look

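In 4 of 14 pairs of a gene and an iPSC group with 4 libraries, 1 library lay far from the other 3. All 4 were at low levels and passed the 95% limit of Dixon's test. That limit is set for normally distributed values, while these were low counts, some of them tied. With no read in 3 libraries, any read in the remaining library passes, as for Kcnma1 in the miR-302 KO iPSC. How often chance alone passes the limit here was not tested, so the 4 pairs are given as a description. Brinp1 had 2.45 CPM (37 reads) in the miR-302 KO iPSC (library 1 of colony 1), against 0.170 CPM or less in the others. Kcnma1 had 0.789 CPM (17 reads) in the miR-290 KO iPSC (library 1 of colony 2), and 0.118 CPM (2 reads) in the miR-302 KO iPSC (library 1 of colony 2), where the others had none. Trabd2b had 0.314 CPM (6 reads) in the miR-290 KO iPSC (library 1 of colony 1), against 1.80 CPM or more in the others.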

How the results depend on the processing

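The double KO minus WT differences of the 5 genes kept their sign in all 22 settings run. With log2(CPM + 1) they were 7.44 for Tenm2, 8.12 for Brinp1, 5.0 for Kcnma1, 7.12 for Hs3st3a1 and 5.57 for Trabd2b, smaller because a larger prior is added. With 1 sample left out they ran from 8.45 to 9.57, 9.53 to 10.31, 5.78 to 6.51, 8.24 to 9.30 and 7.02 to 8.54 in the same order. The count of genes called in this comparison was 6255, and 4495 to 6597 with 1 sample left out.

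The smaller counts moved more, and the cause was not tested. For the miR-290 KO iPSC against WT (201) the count was 409 with each library as a sample, 386 with estimated sample weights, 364 with log2(CPM + 1), 339 without the miR-302 KO library that stood apart, and 2 to 300 with 1 sample left out. For the miR-302 KO iPSC (4) it was 20 with each library as a sample and 3 to 1273 with 1 sample left out. Between the ESC genotypes (75) it was 9 with each library as a sample, 129 without that miR-302 KO library, and 4 to 357 with 1 sample left out. Between the double KO colonies (370) it was 2131 with estimated sample weights and 159 to 732 with 1 library left out. A replicate block changed the counts to 55 (miR-290 KO), 2 (miR-302 KO) and 28 (ESC); samples share only a number, with deviations correlated at r from −0.27 to 0.18 over 30 same-numbered pairs.

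Of 50 genes outside the 5 that the naming rule takes and that were called, 40 kept their call in every setting run and 10 lost it in at least 1; Elac2 and Foxd2, not called, were called in at least 1. Of Kcnn1 the adjusted p ran from 0.0106 to 0.367, and of Wnt3 from 0.00606 to 0.516. No named value changed sign while called. Levels under about 0.1 CPM rest on a few reads, and differences between groups at that depth could not be seen.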
